A study of Mus musculus with 24 samples.

Results

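In mouse neocortex, 5678 protein-coding genes had no peak of ARID1B, FOXP1, or TCF7L2 on any of their promoters at either of 2 embryonic stages. These genes were selected on the absence of peaks, out of 19350 protein-coding genes of GENCODE vM21 on chromosomes 1 to 19, and they make up 29.3% of them. A promoter was the 2000 bp upstream of a transcription start site (TSS), every annotated TSS of a gene was used, and an overlap of 1 base with a peak of any of the 6 peak lists excluded a gene. Olfactory and vomeronasal receptor genes whose symbols begin with Olfr or Vmn were kept out by the same rule. The word "free" below means without such a promoter peak, and says nothing about the binding of other proteins.

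The peaks came from ChIP-seq, which enriches chromatin fragments with an antibody and compares them with input chromatin from the same tissue. All libraries were made from wild-type neocortex on a CD1 background, with no allele or treatment to compare. The tissue was collected on day E15.5 or on day E18.5 of embryonic development. For each transcriptional regulator (TR) and stage there were 2 ChIP and 2 input libraries, 24 in all, and the sample labels write TCF4 for the target that the antibody list gives as TCF7L2. Each TR had 1 peak list at each stage, taken here as the list that the methods describe for merged replicates although each is attached to the first replicate, so no value carries a spread between replicates and no difference was tested. Percentages carry a 95% Wilson interval, which covers counting error only and treats neighboring genes as independent, which they are not. ARID1B belongs to the BAF complex, which moves nucleosomes. FOXP1 binds DNA through a forkhead domain, and TCF7L2 is a DNA-binding effector of Wnt signaling.

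The lists held 24890 to 71442 peaks. The depth recovered from the fold enrichments and p-values was 26.3 M reads in the smaller of the ChIP and input sets of FOXP1 at E18.5 and 57.3 to 80.7 M in the other lists. The lowest fold enrichment (reads at a summit over background) among called peaks was 3.21 in the FOXP1 list at E18.5 and 2.33 to 2.66 in the other lists, so a free promoter may carry weaker enrichment that was not detectable at this depth. In marker lists, all 26 cortical transcription factor genes, all 23 measured pan-neuronal genes, and all 24 measured housekeeping genes had a promoter peak, 67 of these 73 in every list. These are the same peak calls that chose the free genes, and some genes of other tissues also had peaks in every list, so the tissue label itself was not checked independently.

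Vertebrate promoters are of broadly 2 kinds. Genes used in most cells, and many developmental regulators, start transcription within CpG islands, stretches where the dinucleotide CpG has kept close to its expected frequency. Genes restricted to 1 cell type often have few CpGs, and some of them carry a TATA box shortly before the TSS, where the TATA-binding protein sits. Tissue-restricted genes also often belong to families that grew by duplication and stayed side by side on a chromosome. Many genes of the liver, skin, gut, or germ cells are not known for a role in the developing cortex, while some immune genes act there through microglia.

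Promoter sequences of free genes from lists of tissue-restricted genes are shown first, to make the motif concrete. They are the 100 bases before the most upstream TSS, 5′ to 3′ on the coding strand, from RefSeq's copy of GRCm38. Each is from 1 gene for each list that had a free gene with the letters TATAAA lying wholly within the bases 40 to 20 before the TSS (the first such gene in alphabetical order). Capitals mark TATAAA.
Apob, chr12:7977548-7977647, plus strand: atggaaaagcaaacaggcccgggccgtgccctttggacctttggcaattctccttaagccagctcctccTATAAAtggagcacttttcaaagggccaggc
Prss2, chr6:41521687-41521786, plus strand: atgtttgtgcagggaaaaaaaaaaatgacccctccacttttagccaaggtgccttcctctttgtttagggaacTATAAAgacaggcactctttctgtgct
Flg, chr3:93273423-93273522, plus strand: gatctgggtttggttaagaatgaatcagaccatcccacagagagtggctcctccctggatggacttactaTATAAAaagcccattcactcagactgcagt
Acta1, chr8:123894752-123894851, minus strand: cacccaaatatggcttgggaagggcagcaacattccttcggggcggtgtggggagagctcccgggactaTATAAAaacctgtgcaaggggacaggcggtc
Zp1, chr19:10920633-10920732, minus strand: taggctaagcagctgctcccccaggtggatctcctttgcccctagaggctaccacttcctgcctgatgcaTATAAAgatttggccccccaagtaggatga
Ifng, chr10:118440946-118441045, plus strand: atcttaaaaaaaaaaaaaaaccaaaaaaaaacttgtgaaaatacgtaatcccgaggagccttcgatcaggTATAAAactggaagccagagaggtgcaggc
Laptm5, chr4:130913025-130913124, plus strand: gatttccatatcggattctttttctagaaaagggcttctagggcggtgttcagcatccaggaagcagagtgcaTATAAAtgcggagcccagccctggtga
Cryba1, chr11:77725284-77725383, minus strand: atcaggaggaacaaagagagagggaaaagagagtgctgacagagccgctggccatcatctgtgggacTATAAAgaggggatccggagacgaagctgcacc
Slc12a3, chr8:94329101-94329200, plus strand: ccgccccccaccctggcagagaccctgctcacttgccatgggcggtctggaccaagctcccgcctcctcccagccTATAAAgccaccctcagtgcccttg
Cga, chr4:34893679-34893778, plus strand: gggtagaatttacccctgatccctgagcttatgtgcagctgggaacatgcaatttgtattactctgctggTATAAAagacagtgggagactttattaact
Th, chr7:142931129-142931228, minus strand: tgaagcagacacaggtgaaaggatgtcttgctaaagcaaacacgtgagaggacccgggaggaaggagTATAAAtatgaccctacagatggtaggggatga
TATAAA began 25 to 33 bases before the TSS in these 11 promoters, and they held 0 to 4 CpGs in 100 bases. A start nearer than 25 bases lay outside the search. The genes encode a lipoprotein of liver (Apob), a trypsin (Prss2), filaggrin of the epidermis (Flg), skeletal muscle actin (Acta1), a protein of the egg coat (Zp1), interferon gamma (Ifng), a lysosomal protein of blood cells (Laptm5), a lens crystallin (Cryba1), the thiazide-sensitive salt transporter of kidney (Slc12a3), the subunit shared by pituitary glycoprotein hormones (Cga), and tyrosine hydroxylase of catecholamine neurons (Th).

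For contrast, the same stretch is given for 2 genes with promoter peaks in all 6 lists, chosen after their values were known among genes with a CpG ratio of at least 0.6 in the cortical and neuronal lists. Here capitals mark CpG.
Bcl11b, chr12:108003603-108003702, minus strand: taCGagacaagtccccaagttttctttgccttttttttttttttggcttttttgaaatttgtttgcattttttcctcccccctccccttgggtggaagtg
Elavl3, chr9:22052024-22052123, minus strand: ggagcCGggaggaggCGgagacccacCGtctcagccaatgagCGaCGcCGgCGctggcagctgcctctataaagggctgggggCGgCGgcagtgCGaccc
Elavl3, which encodes a neuronal RNA-binding protein, held 10 CpGs in these 100 bases. Bcl11b, a transcription factor of deep-layer neurons, held 1, although its 300 bp window had a CpG ratio of 0.62. Elavl3 also had TATAAA in the same interval before its TSS, so these letters occur at bound promoters too. The exact letters stood in that interval in 2.32% of all coding genes, in 5.72% of free genes (interval 5.15 to 6.36), and in 0.642% of genes with promoter peaks in all 6 lists (0.510 to 0.807). Of the 448 genes with the motif, 325 were free (72.5%, interval 68.2 to 76.5).

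The motif and low CpG content went together only in part. Among genes with a CpG ratio below 0.4, 87.8% of the 337 with TATAAA were free (83.9 to 90.9), against 65.8% of the 6698 without it (64.6 to 66.9). Among genes with a ratio of 0.4 or more, 26.1% of 111 were free (18.9 to 35.0), against 7.78% of 12204 (7.31 to 8.26). In both CpG classes the intervals of genes with and without the motif did not overlap, but they treat neighboring genes as independent. The difference was not tested.

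CpG content near the TSS was lower in free genes than in bound ones. The CpG ratio is the observed number of CpGs over the number expected from the C and G content, here in 300 bp from 250 bp before to 50 bp after the most upstream TSS. Its median was 0.20 in free genes (quartiles 0.10 and 0.33), 0.49 in the 2454 genes with promoter peaks in 1 to 5 lists (0.28 and 0.69), and 0.77 in the 11218 genes with promoter peaks in all 6 lists (0.59 and 0.91). A ratio below 0.4 was found in 4700 of 5678 free genes (82.8%, interval 81.8 to 83.7), in 958 of 2454 genes in 1 to 5 lists (37.1% to 41.0%), and in 12.3% of genes in 6 lists (11.7 to 12.9). Counted over the whole 2000 bp upstream, the shares were 97.6% in free genes and 54.7% in genes of 6 lists. Read the other way, 76.8% of the 3731 genes with a ratio below 0.2 were free, and 1.63% of the 5446 genes with a ratio of 0.8 or more.

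**Figure D1:**
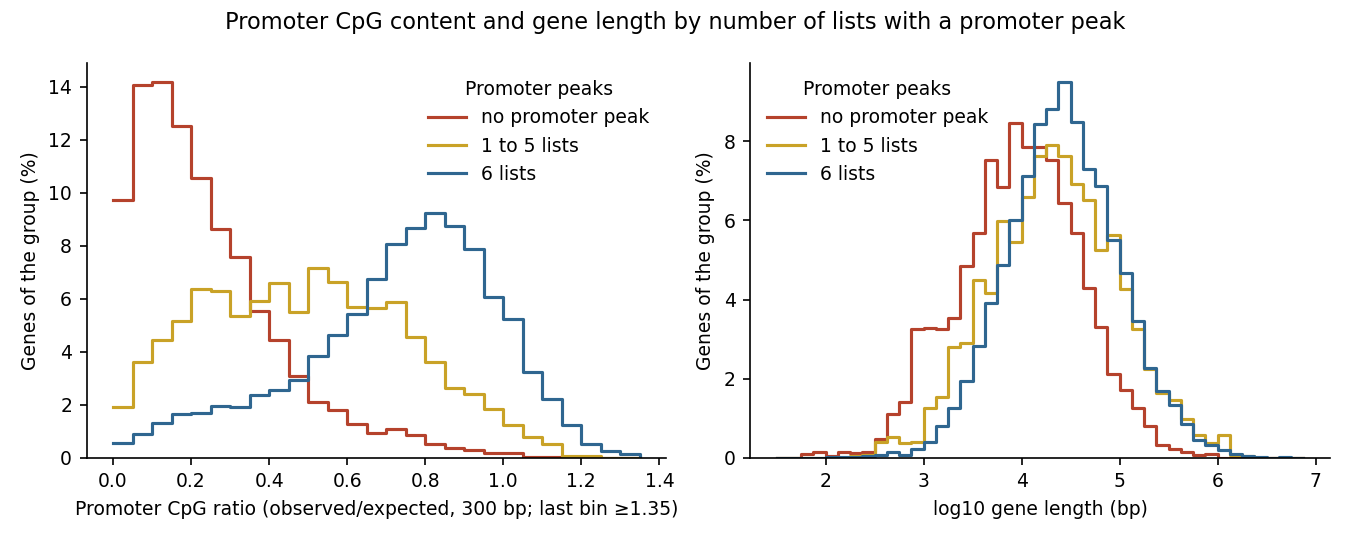
Distribution of the promoter CpG ratio (left) and of gene length (right, log10 of bp) as percent of the genes of each group, for free genes (red), genes with promoter peaks in 1 to 5 lists (yellow), and in all 6 lists (blue). The red curve peaks at low CpG ratios (median 0.20) and the blue curve at high ones (median 0.77), while the lengths overlap widely, with medians of 9859 and 26100 bp.

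Free genes were shorter and had fewer annotated starts. Their median length was 9859 bp (quartiles 3769 and 25363), against 21626 bp in genes of 1 to 5 lists (7515 and 59772) and 26100 bp in genes of 6 lists (10991 and 62613). The summed exons had a median of 1981 bases in free genes and 4671 in genes of 6 lists. A single TSS was annotated for 2536 free genes (44.7%, interval 43.4 to 46.0) and for 8.69% of genes in 6 lists (8.18 to 9.23). The number of TSSs also sets how many promoter bases a peak could fall on, with a median of 2024 bp in free genes and 4480 bp in genes of 6 lists. Of genes with 1 TSS, 62.1% were free, and of the 1809 genes with 10 or more TSSs, 2.76%. The part of promoter length in these shares was not tested.

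The share of free genes fell with CpG ratio within each class of TSS number. Among genes with a single TSS, 89.8% of the CpG-poor ones (ratio below 0.4, 2117 of 2358) and 24.3% of the others (419 of 1726) were free. Among genes with more TSSs, these shares were 55.2% (2583 of 4677) and 5.28% (559 of 10589). Length differed in the same direction within these classes. CpG-poor genes with 1 TSS had a median length of 4663 bp when free and 6140 bp when bound.

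**Figure D2:**
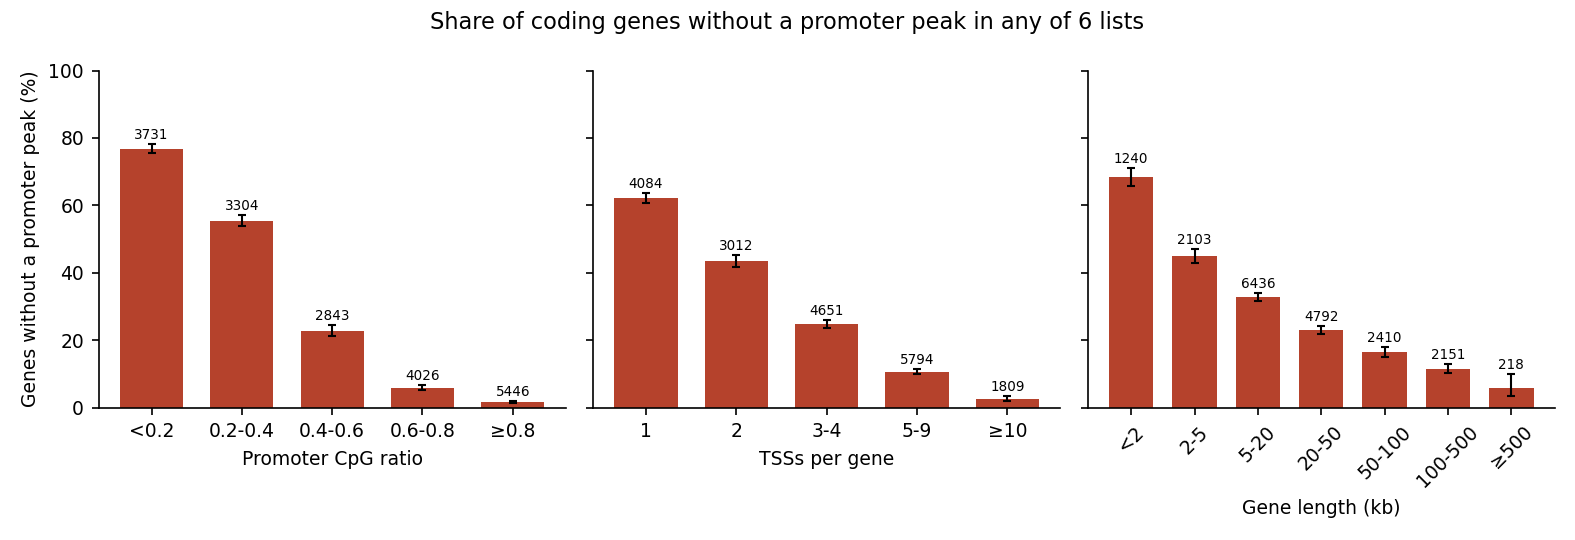
Percent of coding genes that were free, by promoter CpG ratio (left), number of TSSs (middle), and gene length in kb (right), with 95% Wilson intervals as error bars and the number of genes above each bar. The share falls from 76.8% to 1.63% over the CpG classes, from 62.1% to 2.76% over the TSS classes, and from 68.5% to 5.96% over the length classes.

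Reads that match several places were removed by the authors' filter on mapping quality, and repeated promoters can then hold no peak. The share of 50-base stretches of the most upstream promoter that occurred more than once in the reference was therefore measured. Its median was 2.55% in free genes and 0.51% in genes of 6 lists. At least 50% of these stretches were repeated in 753 free genes (13.3%, interval 12.4 to 14.2), in 14 genes of 1 to 5 lists, and in 30 genes of 6 lists. Of all 797 genes with such promoters, 94.5% were free. Without them, 4925 of 18553 genes were free (26.5%), and 82.9% of these were CpG-poor. Beyond this count, the part of repeated sequence in a gene's call was not tested.

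The free set held large families of tissue-restricted genes, read here against the 29.3% of all coding genes that were free. Genes of the skin and its appendages were almost all free. These were 44 of 44 genes of the epidermal differentiation complex, which encode proteins of the cornified layer such as Flg and Lce1a1, 54 of 57 keratin-associated proteins of hair, and 49 of 53 keratins, the intermediate filaments of epithelia. The exceptions were Krt1, Krt10, Krt80, and Krt87 among keratins and Krtap14, Krtap19-4, and Krtap4-7 among keratin-associated proteins.

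Families of secreted proteins, proteases, and their inhibitors followed. All 42 beta-defensins, all 22 alpha-defensins (antimicrobial peptides), all 27 kallikreins (serine proteases), all 23 clade A serpins (protease inhibitors made largely in liver), all 25 genes of the prolactin family (hormones of pituitary and placenta), all 22 major urinary proteins, all 12 lipocalins, and all 5 caseins of milk were free. Of the secretoglobins, 33 of 34 were free, with Scgb1c1 as the exception. Of the alpha-defensins and major urinary proteins, 19 and 16 free genes had promoters of which at least 50% was repeated, and of the secretoglobins 18. None of the free carboxylesterases (19 of 19) or trace amine receptors (15 of 15) had such promoters.

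Enzymes of drug and steroid metabolism and receptors for chemicals were also mostly free. All 21 UDP-glucuronosyltransferases, a count that leaves out the myelin lipid enzyme Ugt8a (in all 6 lists), and 77 of 100 cytochrome P450 genes were free, while 10 P450 genes had promoter peaks in all 6 lists. Of 38 taste receptor genes, 37 were free and Tas1r1 was not. Of 20 Mas-related receptor genes, 19 were free and Mrgpre was not. The Olfr and Vmn genes, which the rule left out, were free in 1451 of 1457 cases (99.6%).

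Among immune families, 25 of 26 killer cell lectin-like receptor genes (all but Klrg2), all 19 membrane-spanning 4A genes, 30 of 37 chemokine genes, and 29 of 37 interleukin genes were free. The type I interferon list held 18 free genes of 20, and its bound genes were those of the receptor subunits, Ifnar1 and Ifnar2. All 17 NLRP genes, which include inflammasome sensors such as Nlrp3 and genes of the oocyte, were free. Families active in germ cells and early embryos included 14 of 15 PRAME-like genes, 7 of 7 Obox genes, and 10 of 10 Speer genes. Germ cell families named by testis expression were mixed, with 18 of 30 Tex genes and 13 of 29 Spata genes free.

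At the other end stood families used in all cells. None of 78 mitochondrial ribosomal protein genes with Mrpl or Mrps symbols and none of 44 complex I subunit genes was free, with intervals that reach 4.69% and 8.03%. All of these genes were in all 6 lists. The 3 free proteasome genes of 49 were Psma8, a subunit of the testis proteasome, Psmb11, the thymus-specific subunit, and Psme2b, and 1 of these 3 had a promoter of which at least 50% was repeated. The 10 free ribosomal protein genes of 95 were Rpl10l, Rpl39l, Rpl3l, Rps27rt, and 6 genes whose symbols mark them as processed copies (Rpl10-ps3, Rpl36-ps4, Rpl36a-ps1, Rpl9-ps1, Rpl9-ps6, and Rps12-ps3). The 9 free replication-dependent histone genes of 67 included Hist1h1t, Hist1h2aa, and Hist1h2ba, histone variants of the testis, and 6 had promoters of which at least 50% was repeated.

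Symbols were also sorted by their letters, without a list. Of 273 symbol stems with at least 10 genes, 23 had only free genes, 43 had at least 80% free genes, and 50 had none. The 20 stems with most free genes, in falling order, were Gm (1000 of 1228), Slc (109 of 358), Cyp (77 of 100), Zfp (71 of 385), Cd (64 of 97), Krtap (54 of 57), Il (49 of 77), Krt (49 of 53), Tmem (48 of 235), Fam (43 of 196), Defb (42 of 42), Tas (37 of 38), C (36 of 67), Scgb (33 of 34), H (32 of 51), Prss (32 of 39), Trim (32 of 68), A (27 of 46), Clec (26 of 30), and Klk (26 of 26). Slc, Zfp, Tmem, and Fam are broad groups, and their shares of 30.4%, 18.4%, 20.4%, and 21.9% lay near or below the share over all genes. Predicted genes with a Gm number made up 999 of the free genes and RIKEN clone symbols 256, and 4423 had neither.

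Gene lists for cell types gave the same contrast at the level of known markers. In the 14 lists for other organs, blood, immune and germ cells, microglia, and hormone or monoamine neurons, 228 of 291 genes were free (78.4%, interval 73.3 to 82.7). Some of these genes are also used in the cortex, such as those of microglia and the interneuron peptides Sst, which was free, and Npy, which was in all 6 lists. In the neuronal, cortical, and housekeeping lists, 0 of 73 genes were free, and the upper limits of the 3 lists were 12.9% to 14.3%. In the lists for oligodendrocytes and astrocytes, glia that form largely after these stages, 11 of 35 were free (31.4%, 18.6 to 48.0), close to the 29.3% of all coding genes.

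Liver and pancreas genes were free in most cases. Of hepatocyte genes, 24 of 25 were free, among them Ahsg, Alb (serum albumin), Ambp, and Apoa1, and the exception Apoh had promoter peaks in 5 lists. The nearest peak of any list to an Alb promoter lay 91702 bp away. Of pancreas genes, 14 of 18 were free, such as Cel, Cela2a, Cela3b, and Clps, all of digestive enzymes or their cofactor. The exceptions were Gcg in 5 lists, Ptf1a, a transcription factor also used in neural progenitors, in 4, and Cela1 and Ppy in 1 list each.

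Skin and muscle lists held 16 and 14 free genes. Of epidermal genes, 16 of 18 were free (Casp14, Dsc1, Dsg1a, Flg, and others), with Krt1 in 4 lists and Krt10 in 6. Of striated muscle genes, 14 of 28 were free (Acta1, Actc1, Mb, Myh1, and others), and 3 were in all lists (Actn3, Mylpf, and Tnnc1). Titin (Ttn), with 16 TSSs, was in 1 list only, that of ARID1B at E18.5.

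Germ cell and blood lists were largely free. Sperm genes were free in 19 of 24 cases (Acr, Acrv1, Adam2, Adam3, and others), with Dazl and Zpbp in 6 lists, Hspa1l in 5, Tssk1 in 4, and Spaca1 in 1. Oocyte genes were free in 15 of 18 cases (Dppa3, Figla, H1foo, Mos, and others), with Gdf9 and Npm2 in 6 lists and Astl in 4. Lymphocyte genes were free in 24 of 26 cases (Blk, Cd22, Cd27, and others), and Lck and Pax5 were in all 6 lists. Erythroid genes were free in 13 of 17 cases (Epb42, Ermap, Hba-a1, Hba-a2, and others), and among the bound ones Epor and Tmod1 were in 5 lists and Rhd in 4. The beta-globin gene Hbb-bs lay 1140167 bp from the nearest peak, and the alpha-globin gene Hba-a1 892 bp.

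Microglia belong to the cortex but make up few of its cells at these stages. Of 22 microglia and macrophage genes, 17 were free (Aif1, C1qa, C1qb, Cd14, and others). Among the exceptions, Sall1 was in all 6 lists, Cd68 and Tmem119 were in 5, and C1qc was in 2. In whole tissue, binding confined to a rare cell type and absence of binding cannot be told apart.

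Sense organ, kidney, and gut lists were free in a majority of genes. Photoreceptor genes were free in 14 of 17 cases (Cnga1, Cnga3, Crx, Gnat2, and others), and Rom1 was in 6 lists, Opn1sw in 5, and Gnat1 in 4. Lens genes were free in 12 of 19 cases (Cryaa, Cryba1, Crybb2, Cryga, and others) and none was in all 6 lists. Kidney and gut genes were free in 20 of 22 cases (Aqp2, Cdh16, Cdx1, Cdx2, and others), with Nphs1 in 5 lists and Slc34a1 in 1.

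Genes of hormone and monoamine neurons and of macroglia were also among the free genes. Of 24 hypothalamic and pituitary hormone genes, 19 were free, among them Avp (vasopressin), Cga, Crh, and Fshb, while Agrp, Ghrh, and Npy were in 6 lists and Cartpt and Gh in 1 each. Of 13 genes of monoamine neurons, 7 were free, including Dbh, Hdc, Pnmt, and Slc18a2, and the serotonin transporter gene Slc6a4 was in 6 lists. Of 20 oligodendrocyte genes, 8 were free (Aspa, Cspg4, Gpr17, Mag, and others), 8 were in 1 to 5 lists, and Cnp, Mbp, Pdgfra, and Ugt8a were in all 6. Of 15 astrocyte genes, 3 were free, Aldh1l1, Gjb6, and S100b.

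**Figure D3:**
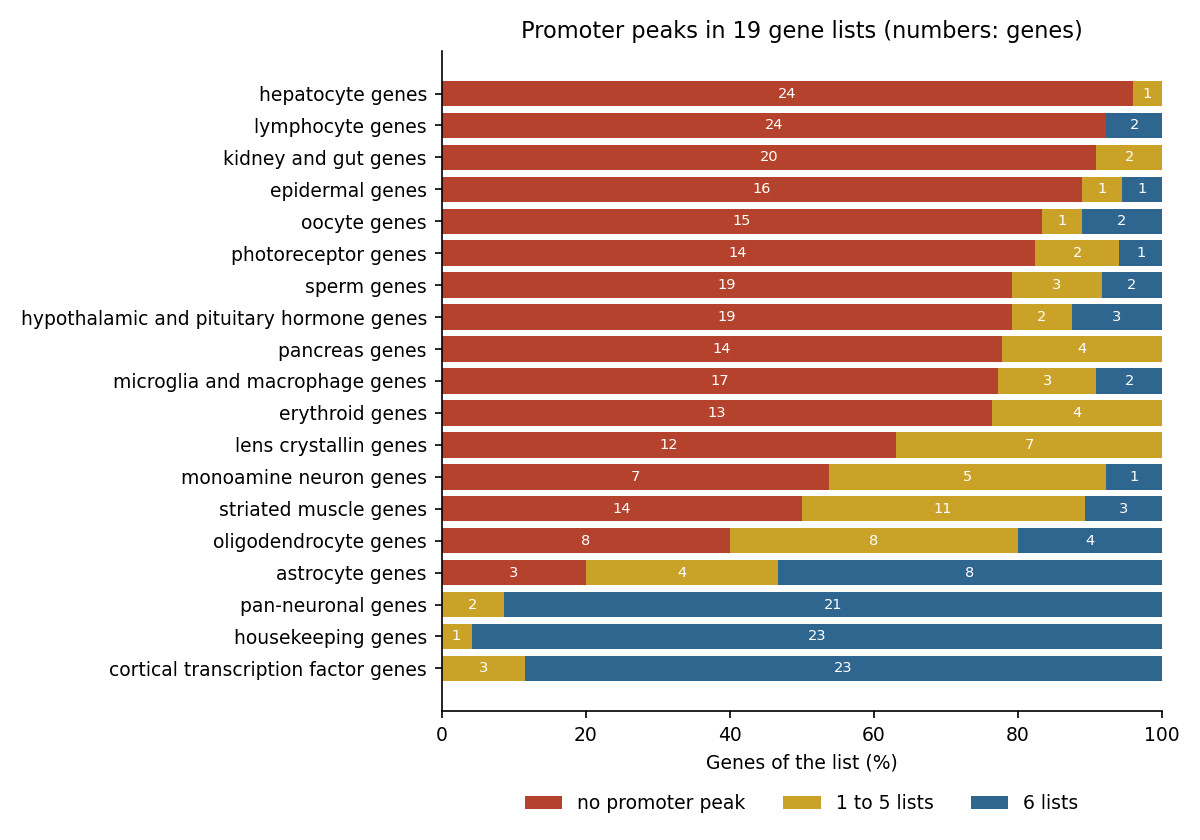
Percent of the genes of 19 lists that were free (red), had promoter peaks in 1 to 5 lists (yellow), or in all 6 lists (blue), with numbers of genes printed in the bars. Hepatocyte genes stand at the top with 24 of 25 free, and the 3 lists of neuronal, housekeeping, and cortical genes at the bottom with none.

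Within the 14 tissue lists, free and bound genes differed in the same features as over all genes. The 228 free genes had a median CpG ratio of 0.24 and a median of 2 TSSs, and 83.3% of them were CpG-poor. The 63 bound genes had a median ratio of 0.36 and a median of 3 TSSs, and 57.1% were CpG-poor. A promoter peak was found in 28 of the 291 genes in the FOXP1 list at E18.5, the shallowest list, and in 52 in the FOXP1 list at E15.5. Of the 63 bound genes, 13 were bound in a single list.

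Free genes lay next to each other. With the 19350 genes in chromosomal order, the next gene was also free for 55.5% of free genes and for 18.46% of bound genes. Runs of at least 5 consecutive free genes numbered 202 and held 2434 free genes (42.9%, interval 41.6 to 44.2), and 75 runs of at least 10 held 1608. At the other extreme, 1698 free genes (29.9%) had a bound gene on both sides.

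The longest run, 99 genes with predicted or RIKEN clone symbols from Gm2888 to Gm10128, filled 4.61 Mb near the start of chromosome 14 (3030002 to 7643972) and held no peak of any list. The median share of repeated 50-base stretches in its promoters was 92.3%. The next run, 79 genes on chromosome 14 from Mat1a to Ptger2 (41105035 to 45003820), also held no peak, with a median repeated share of 77.0%. Of the genes on chromosome 14, 44.7% were free, against 23.3% to 33.7% on the other autosomes, and 30.2% without these 178 genes.

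Other long runs had promoters that reads could place. On chromosome 3, 65 genes from S100a5 to Tchhl1 (90608523 to 93471980) formed the epidermal differentiation complex, with a median repeated share of 0.51% and 25 peaks over the 6 lists in 2.86 Mb. On chromosome 11, 41 genes from Gm11555 to Krt42 (99649599 to 100269871) held the keratin and keratin-associated genes, with 1.02% and 9 peaks. On chromosome 5, 34 genes from Ugt2b34 to Jchain (86889767 to 88527891) held UDP-glucuronosyltransferases, sulfotransferases, and caseins, with 0.51% and 2 peaks. On chromosome 6, 32 genes from Gm6619 to Tas2r140 (131486400 to 133055816) held 24 bitter taste receptors, with 0.77% and no peak.

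The remaining runs of the 10 longest were more repeated. On chromosome 8, 64 genes from Defb40 to Ccdc70 (18974940 to 21974041) held the defensins, with a repeated share of 44.1% and 14 peaks. On chromosome 2, 47 genes from Zfp831 to Zfp931 (174643534 to 178078476) held zinc finger genes, with 94.4% and 40 peaks. On chromosome 7, 41 genes from Igsf23 to V1rd19 (19937305 to 24005057) lay among 64 Olfr and Vmn genes, with 100% and no peak. On chromosome 4, 35 genes from Oog4 to Gm438 (143437164 to 144786583) held PRAME-like genes of the oocyte, with 24.0% and no peak.

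Peaks were sparse within the runs. Over 135.5 Mb, the runs held 1.67 peaks per Mb and list, against 21.7 over chromosomes 1 to 19. Of the 202 runs, 69 held no peak of any list, and 28 of these had a median repeated share below 10%. The rule fixed that promoters in the runs have no peaks, so part of this difference is given by the choice. In 38 runs the median repeated share was 50% or more. The density outside promoters, or without these runs, was not counted. A density above that of the chromosomes was found in 6 runs. The densest were 5 genes from Aif1 to Lta on chromosome 17 (35170991 to 35205351, 72.8 peaks per Mb and list) and 15 genes from Pcdhga1 to Pcdhga10 on chromosome 18 (37661793 to 37841873, 62.0).

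**Figure D4:**
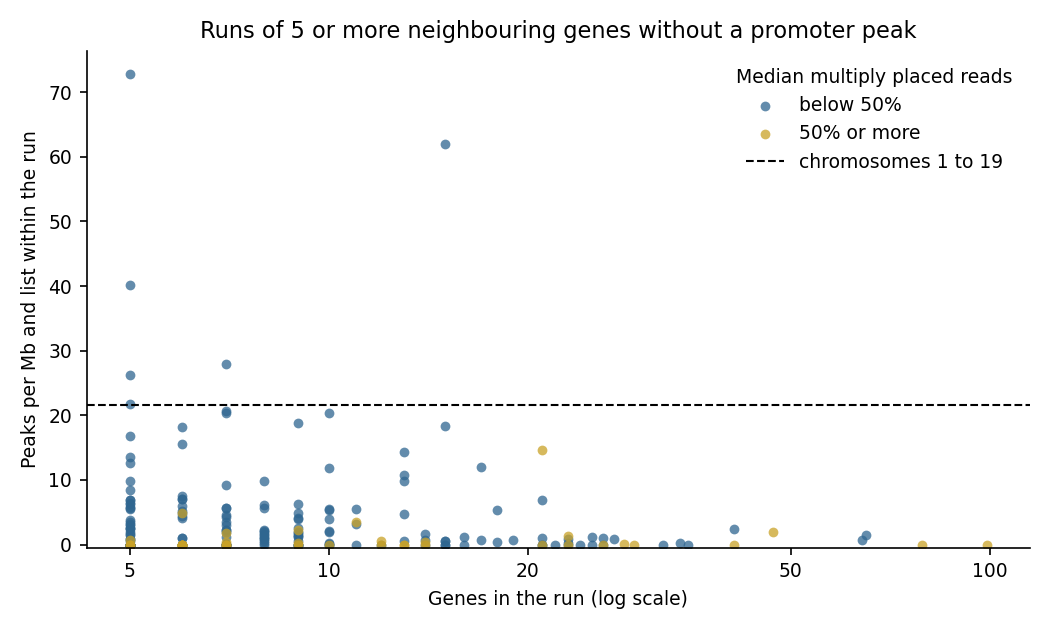
Each point is 1 of the 202 runs, with the number of free genes in it on a log axis against the number of peaks per Mb and list, and the dashed line is the density over chromosomes 1 to 19 (21.7). Of the runs, 6 lie above the line, and yellow points mark the 38 runs whose promoters had a median repeated share of 50% or more.

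Genes in long runs differed from isolated ones. In runs of 10 or more, 90.5% of free genes were CpG-poor, 11.1% had TATAAA, the median length was 5.99 kb, and 4.29% had a peak in the gene body (interval 3.40 to 5.40). Among the 1698 isolated free genes, 78.4% were CpG-poor, 2.47% had TATAAA, the median length was 13.2 kb, and 38.5% had a gene body peak (36.2 to 40.8). The median distance to the nearest peak was 164.0 kb in the long runs and 6.88 kb in isolated genes. Isolated genes have by definition a bound gene on both sides. Part of the difference in distance, and in gene body peaks, is thus given by the definition. A repeated share of 50% or more was found for 518 of 1608 genes in the long runs and for 17 isolated genes.

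Peaks in the gene body, between the annotated start and end of a gene, were found in 1287 of the 5678 free genes (22.7%, interval 21.6 to 23.8). Over all coding genes the share was 76.3%, and in genes with promoter peaks in all 6 lists it was 99.6%. Both are counted in the same lists that chose the genes, and a peak at a promoter often reaches past the TSS. Counted from 2000 bp downstream of the last TSS, the shares were 15.2% in free genes and 30.7% in genes of 6 lists. The median number of TSSs was 2 in free genes and 5 in genes of 6 lists, so this count may leave unlike parts of the genes. With all gene body peaks counted, 322 free genes had them in all 6 lists (5.67%, against 61.9% of all coding genes) and 265 in 1 list. When only peaks whose −log10 p reached 15 were used, the share of free genes with a gene body peak was 11.4%, and 98.7% in genes of 6 lists.

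By list, 1015 free genes had a gene body peak of FOXP1 at E15.5 (17.9%), 901 of ARID1B (15.9%), and 498 of TCF7L2 (8.77%). At E18.5, the numbers were 495 for FOXP1 (8.72%), 856 for ARID1B (15.1%), and 806 for TCF7L2 (14.2%). Over all coding genes, the shares ran from 65.2% for FOXP1 at E18.5 to 73.8% for FOXP1 at E15.5. The lists differ in depth and antibody, and these counts were not compared further. Both stages were represented in 982 free genes, E15.5 alone in 186, and E18.5 alone in 119. The matching counts over all coding genes were not made, so these numbers are a description only.

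The share with a gene body peak rose with gene length. It was 8.51% in the 1798 free genes below 5 kb (7.31 to 9.89), 17.5% from 5 to 20 kb, 37.1% from 20 to 100 kb, and 78.3% in the 263 free genes of 100 kb or more (73.0 to 82.9). Over all coding genes it also rose, from 48.0% below 5 kb through 71.9% and 86.5% to 97.6% from 100 kb. In every length class the share in free genes was below that of genes in 1 to 5 lists, which was 84.1% below 5 kb and 100% from 100 kb. Promoter peaks that reach past a TSS count as gene body peaks in bound genes, while the rule bars them from free genes. Part of this gap, and of the gap in peak density that follows, is thus given by the choice. Peaks past the promoter were not counted by length. In free genes the number of peaks per Mb of gene and list was 24.4 below 5 kb, 11.6 from 5 to 20 kb, and 8.70 from 20 to 100 kb, against 299.3, 92.5, and 34.2 in genes of 1 to 5 lists. Free genes of 100 kb or more held 12.4 peaks, genes of 1 to 5 lists of that length 16.1, and genes of 6 lists 29.97, with a peak counted once for each gene that holds it.

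**Figure D5:**
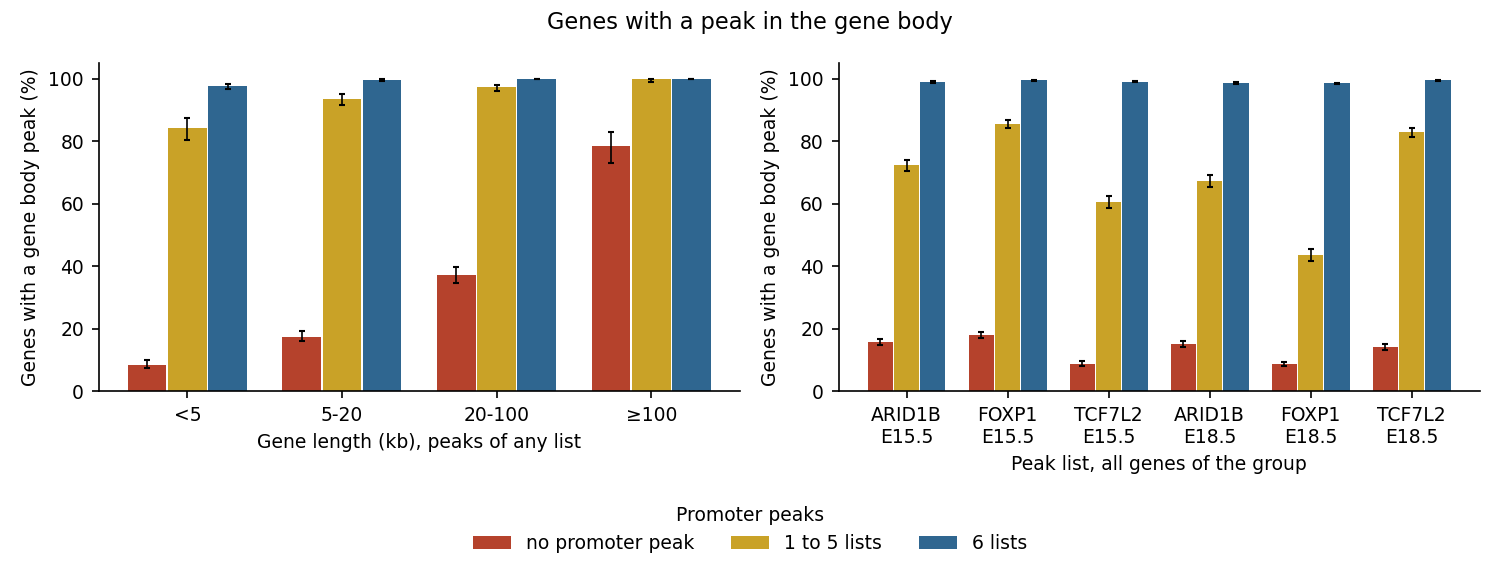
Percent of genes with a gene body peak by gene length in kb (left, any list) and by peak list (right), for free genes (red) and genes with promoter peaks in 1 to 5 (yellow) and 6 lists (blue), with 95% Wilson intervals as error bars. Red bars rise from 8.51% to 78.3% with length and stand lowest in every class and list. Promoter peaks that reach past a TSS count in yellow and blue bars and are barred from red ones, so part of the gap is given by the choice.

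The gene body peaks of free genes numbered 7498 over the 6 lists, with a median fold enrichment of 3.84 (quartiles 3.23 and 5.05) and a median width of 389 bp. In genes of 6 lists, gene body peaks had a median of 4.49 (3.42 and 6.45) and a width of 558 bp. Of the 7498 peaks, 1255 lay on the promoter of another gene (16.7%), counting genes of every biotype, and 20.5% had their summit in an exon. Of the 259 peaks with a fold enrichment of at least 10, 126 lay on the promoter of another gene (48.6%), against 15.6% of the lower ones. With all peaks on a promoter of any gene left out, 1149 free genes kept a gene body peak (20.2%), against 54.7% of genes in 6 lists.

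Of the 10 free genes with the highest gene body peaks, 9 had a peak that lay on the promoter of another gene. The highest, at 36.5-fold in the FOXP1 list at E15.5, lay in Gm28305. Those in Phkg1 (35.1, at the Chchd2 promoter), Trpm5 (30.1, at the Tssc4 promoter), Nhlrc4 (25.2, at the Pigq promoter), and Slc35g3 (23.7, at the Polr2a promoter) were also FOXP1 peaks at E15.5. Gm42906 (33.3) lay over promoters of a lincRNA and a processed transcript, Gm49776 (22.8) over those of Ranbp1 and Trmt2a, and Gm20481 (24.4, TCF7L2 at E15.5) over those of the heat shock genes Hspa1l and Hspa1a. Sun3 (23.2, FOXP1 at E18.5) had its peak summit 568 bp inside the gene, at the promoter of Gm11992. Lect2 (23.4, FOXP1 at E18.5), which encodes a secreted protein of liver, was the only one of the 10 whose peak lay on no promoter, with its summit 1953 bp downstream of a TSS. In Nhlrc4, Slc35g3, and Gm20481 the peak reached into the gene but its summit lay outside it.

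Peak numbers varied widely among the longest free genes, from 2 to 149. Arhgap15, which encodes a GTPase-activating protein, spans 647 kb on chromosome 2 (43748824 to 44395953) and held 149 peaks over the 6 lists. At E15.5 it held 41 of ARID1B, 35 of FOXP1, and 11 of TCF7L2, and at E18.5 37, 8, and 17. Its highest reached 18.1-fold. Agbl1 (895 kb, 68 peaks) and Slc7a11 (551 kb, 70 peaks), a cystine transporter, also had peaks in all 6 lists, and so did Hpse2 (602 kb, 10 peaks). The longest free gene was Cntnap5a, of a neuronal cell adhesion protein, at 903 kb on chromosome 1 (115684756 to 116587323), with 3 ARID1B peaks and 1 FOXP1 peak at E15.5 and 4 ARID1B peaks at E18.5. Its paralog Cntnap5c (641 kb) held 2 peaks and Malrd1 (729 kb) held 4.

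Overlapping annotation entered these counts. Gm42416, Gm37013, and Gm37388, 857 to 887 kb long on chromosome 18 with 100, 90, and 90 peaks, run across the protocadherin clusters and share most of their peaks. Pcdhga10, Pcdhga9, and Pcdhgb2 each counted the same 67 peaks, since their annotated bodies are nested and end within 3 bp of each other. Atp5o, a subunit of ATP synthase, is annotated over 243 kb with 1 TSS in this release and held 87 peaks.

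Protocadherins, adhesion proteins by which neurons tell themselves apart, were free in 54 of 67 cases. All 22 Pcdhb genes were free and none had a gene body peak, with a median length of 3.71 kb. Of Pcdha genes, 12 of 14 were free, and of Pcdhg genes, 18 of 21. All of these 12 and 18 had gene body peaks in all 6 lists. Their median CpG ratios were 0.66 in Pcdha, 0.43 in Pcdhb, and 0.53 in Pcdhg, above the median of 0.20 over all free genes.

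Free genes with CpG-rich promoters were the minority of 327 with a ratio of at least 0.6 (5.76%, interval 5.18 to 6.40). Of these, 78 had promoters of which at least 50% was repeated, 79 had Gm or Rik symbols, and 56 had a peak within 2000 bp of a promoter. Protocadherin, Hox, and histone genes made up 30. A gene body peak was present in 32.4% of them (27.6 to 37.7), in 35.5% of free genes with a ratio of 0.4 to 0.6 (31.9 to 39.2), and in 20.2% of CpG-poor free genes (19.1 to 21.4). The median lengths of these classes were 17.5, 15.2, and 9.21 kb, and the part of length in these shares was not tested.

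Hox genes, which pattern the trunk and are silent in the forebrain, were free in 9 of 39 cases (23.1%, interval 12.6 to 38.3), an interval that holds the 29.3% of all coding genes. The free ones were Hoxa3, Hoxb1, Hoxb2, Hoxc4, Hoxc8, Hoxc9, Hoxc11, Hoxc12, and Hoxc13. Only 3 of the 39, Hoxa4, Hoxa7, and Hoxd12, were in all 6 lists. Hoxa3 had gene body peaks in every list. ARID1B had 3 there at E15.5 and 6 at E18.5, FOXP1 3 and 1, and TCF7L2 10 and 14. Hoxc4, Hoxc11, Hoxc12, and Hoxc13 each had 1 peak, in the TCF7L2 list at E18.5, and Hoxb1 and Hoxc8 had none.

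The distance from a free gene's promoters to the nearest peak of any list had a median of 21806 bp (quartiles 5685 and 84035). It was at most 2000 bp in 714 free genes (12.6%) and over 100000 bp in 1279 (22.5%), and it reached 4719459 bp at Gm2888. In the first 1000 bases after a TSS, 262 free genes (4.61%) had a peak summit, and 18 of them in all 6 lists. The share of all coding genes with such a summit was not counted. Of gene body peaks, 8.79% had their summit there in free genes and 30.3% in genes of 6 lists. The rule bars peaks that also touch a promoter from free genes, so part of this gap is given by the choice.

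Genes just past the threshold on either side are given as a description. The free genes nearest to being bound were Ikbke, with a FOXP1 peak at E15.5 that ended 2 bp from a promoter, Rag1 (4 bp, ARID1B at E18.5), Otos (8 bp, FOXP1 at E15.5), Cyp4f39 (8 bp, ARID1B at E18.5), and Acvrl1 (9 bp, FOXP1 at E15.5). The bound genes with least overlap were Il27ra and Ascl2, each with 1 base of a TCF7L2 peak at E18.5, 7530416G11Rik with 1 base of a FOXP1 peak at E15.5, Ccm2l with 2 bases of an ARID1B peak at E18.5, and Galnt6 with 2 bases of a TCF7L2 peak at E18.5. In sum over their peaks, 119 bound genes overlapped by 100 bases or less. A single list bound 469 genes, 177 of them that of TCF7L2 at E18.5 and 167 that of FOXP1 at E15.5.

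The annotation decided some of the calls. RefSeq mRNAs of the same symbol, chromosome, and strand were found for 4918 of the free genes, and 156 of these (2.75% of all free genes) had a peak on the 2000 bp upstream of a RefSeq start. For 54 of them, these peaks came from all 6 lists, and 47 had such a peak at a curated RefSeq start. The median distance of these starts from the nearest GENCODE start was 4165 bp.

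By the shortest distance among genes with peaks of all 6 lists, the first were Ahrr (305 bp), Diras2 (443 bp), Sun3 (450 bp), Ythdc2 (739 bp), Gadd45gip1 (760 bp), Gm20604 (862 bp), Fscn2 (1369 bp), Sdhaf1 (1520 bp), Angptl6 (1665 bp), and Tex38 (1983 bp). Diras2, Gadd45gip1, Gm20604, and Sdhaf1 had curated starts there. Gadd45gip1, of the mitochondrial ribosome, had a fold enrichment there of 6.24 for ARID1B, 11.3 for FOXP1, and 7.34 for TCF7L2 in the younger tissue, and of 7.43, 10.6, and 7.77 in the older. Sdhaf1, an assembly factor of succinate dehydrogenase, had 6.41, 13.5, and 8.07 in the younger tissue and 6.17, 8.80, and 8.10 in the older, in the same order. Both are genes of general metabolism whose free call rests on the start that the annotation gives.

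The stages and TRs gave similar sets. At E15.5, 5913 genes were free of all 3 TRs and at E18.5, 5981, of which 5678 were free at both. By TR over both stages, 6447 genes were free of ARID1B, 6156 of FOXP1, and 6190 of TCF7L2. Single lists left 6172 to 7564 genes free, most in the FOXP1 list at E18.5.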

How the data were processed

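The deposited files were 6 narrowPeak lists for 24 libraries (12 ChIP, 12 input), 1 list per TR and stage, each attached to the first replicate. Per the methods, the authors aligned single-end 50-base reads with BWA 0.7.15 to GRCm38 (mm10), filtered them by mapping quality with SAMtools, merged replicates, and called peaks with MACS2 2.2.7 against input, without a local background and with reads extended to 200 bp. How duplicates were treated was not given in the sources used. The authors' lists give fold enrichment (a ratio of reads at the summit to background), −log10 of p and q, and a score, which was not used here. The −log10 p served in 1 alternative and to recover depth. The background that ties fold enrichment to the Poisson p was found for each list, and multiplied by a genome size of 1870000000 and divided by 200.

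Samples were grouped by their labels. Genes and TSSs came from GENCODE vM21, an earlier release than the study names, and sequence and further starts from RefSeq GRCm38, the build of the lists, counted from 1. RefSeq mRNAs matched 93.5% of genes by symbol, chromosome, and strand. CpG ratios, TATAAA, and exact repeats of 50-base stretches (sampled every 10 bases) were computed with Python 3.11.15, numpy 2.4.6, pandas 2.3.3, and scipy 1.17.1. A run was at least 5 free genes consecutive among the 19350 genes. Overlap counting was checked on made intervals of known overlap. No test was run, since there is 1 list per TR and stage.

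Named genes followed a rule: ends of the 10 longest runs, list members or exceptions where 5 or fewer and otherwise the first 4 in alphabetical order (contrast promoters, exceptions beyond that, Hox and proteasome genes, and single values were chosen after they were seen), families by count, the 20 commonest symbol stems, the 10 longest genes and those with most or highest gene body peaks, threshold neighbors, 10 genes with RefSeq starts, and 1 promoter sequence a list, outside chromosome 18. Genes, families, and lists were chosen with earlier results of these data known. A few items that this rule would name are not reported here.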

Additional observations from a re-analysis of the deposited data

How the results depend on the processing

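The number of free genes stayed within 1.5 times of 5678 in every alternative run, from 4925 (repeated promoters left out) and 5214 (5000 bp upstream) to 7218 (peaks with −log10 p of at least 15), and was 5684 to 5855 when 1 list was left out. The share with a gene body peak was 11.4% with −log10 p of at least 15, 20.2% without peaks on promoters of any gene, and 15.2% from 2000 bp downstream of the last TSS. In genes of 6 lists these shares were 98.7%, 54.7%, and 30.7%. Median length was 11.6 kb with −log10 p of at least 15 and 11.4 kb without Gm and Rik symbols. The CpG-poor share was 73.9% with −log10 p of at least 15 and 97.6% when counted over the 2000 bp upstream, where it was 54.7% in genes of 6 lists. The share in runs was 44.2% (5000 bp upstream), 39.997% (−log10 p of at least 15), 55.4% (runs of 3 or more), 28.3% (10 or more), and 41.0% (Olfr and Vmn genes ending a run). With promoters of which at least 50% was repeated left out, an alternative chosen after seeing the data, the gene body share was 25.8%, median length 10.8 kb, and the share in runs 34.7%. The causes were not tested. No paired analysis was possible because there is 1 list per TR and stage and no result comes from a test. Depth limits peaks below the lowest fold enrichment of each list.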
